A study of Homo sapiens with 4 samples.

Results

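Unmodified ARP1 cells, a long-established line from human multiple myeloma, were profiled by RNA sequencing in 2 of the 4 samples of the series, taken as those whose genotype is wild type. The other 2 samples were ARP1 cells that overexpressed RFWD2, the older symbol of COP1, an E3 ubiquitin ligase that marks proteins for degradation. No other treatment, allele or time is given for either group, and the labels do not say whether the repeats of a group were separate cultures, so the spread between wild type libraries may be technical. Per the labels, poly(A) RNA was sequenced as paired ends. The protocol text speaks of adipose material, and the description field of the wild type samples reads ARP3 and ARP4 where the cell line field reads ARP1. COP1 stood at 5.99 and 8.93 FPKM in the wild type libraries and at 13.5 and 13.9 FPKM in the overexpression libraries. What follows describes which genes the wild type cells expressed and at what level. Values are given for wild type library 1 and then library 2, and no test was run.

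Multiple myeloma is a cancer of plasma cells, the end stage of the B cell lineage. When a B cell becomes a plasma cell, the transcription factors IRF4, PRDM1 and XBP1 come on, the B cell factors that oppose them go off, and the endoplasmic reticulum expands to fold and export antibody. Myelomas often carry a translocation that puts an oncogene such as a MAF factor, a D cyclin, NSD2 or MYC beside an immunoglobulin enhancer.

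The deposited table gives an estimated count and an FPKM value, which scales fragments to gene length and library depth, for 58825 genes. Total counts were 70149131 and 70713792, so the libraries were of nearly equal depth, while their summed FPKM came to 348815 and 292344. At this depth a count of 0 allows up to 3 counts, which for the median gene corresponds to 0.0105 and 0.0108 FPKM, for counting error only. A gene was called expressed when it reached 1 FPKM in both libraries. The libraries differed in composition: mitochondrially encoded genes took 7.68% of counts in library 1 and 4.27% in library 2. In overexpression libraries 1 and 2 the shares were 7.46% and 4.96%. Levels of individual genes are therefore given for each library, and single genes that lie far apart are described at the end.

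ARP1 cells expressed 10138 genes, 17.2% of those in the table. Another 1630 genes reached the threshold in only 1 library, and 33455 were listed at 0 in both. Protein-coding genes made up most of the expressed set, with 8682 of 19916 expressed. Of the long intergenic noncoding genes, 215 of 7574 were expressed, and of the pseudogenes 681 of 15186. The median expressed gene stood at a mean of 6.04 FPKM, with quartiles at 2.90 and 14.9 FPKM. Levels were concentrated in few genes: 37 genes reached a mean of 1000 FPKM, 353 lay between 100 and 1000 FPKM, and 137 genes held 50% of the summed mean FPKM. In a bulk sample a lower level in each cell and fewer cells that express a gene cannot be told apart.

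The most abundant RNA was IGKC, the constant region of the kappa light chain of antibodies, at 22146 and 12219 FPKM. The table places it on the minus strand at chr2:88857161-88857683. Behind it came mitochondrially encoded respiratory chain genes, led by MT-CO3 at 12968 and 5712 FPKM. GAPDH, the glycolytic dehydrogenase, had the highest level of any nuclear gene outside the immunoglobulins, at 4079 and 3779 FPKM, followed by TMSB10, an actin-sequestering thymosin, at 3058 and 2798 FPKM. The elongation factors EEF1G, EEF2 and EEF1A1 and several ribosomal protein genes, led by RPL41, filled most of the remaining top 30 places. These were mostly genes of energy supply, translation and antibody. The plot of the most abundant genes shows 30 of 30 lower in library 2 as deposited. Of the 11079 genes whose mean reached 1 FPKM, 6938 were higher in library 2. For some of the 30, GAPDH among them, the direction turned when the libraries were rescaled to equal summed FPKM.

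**Figure D1:**
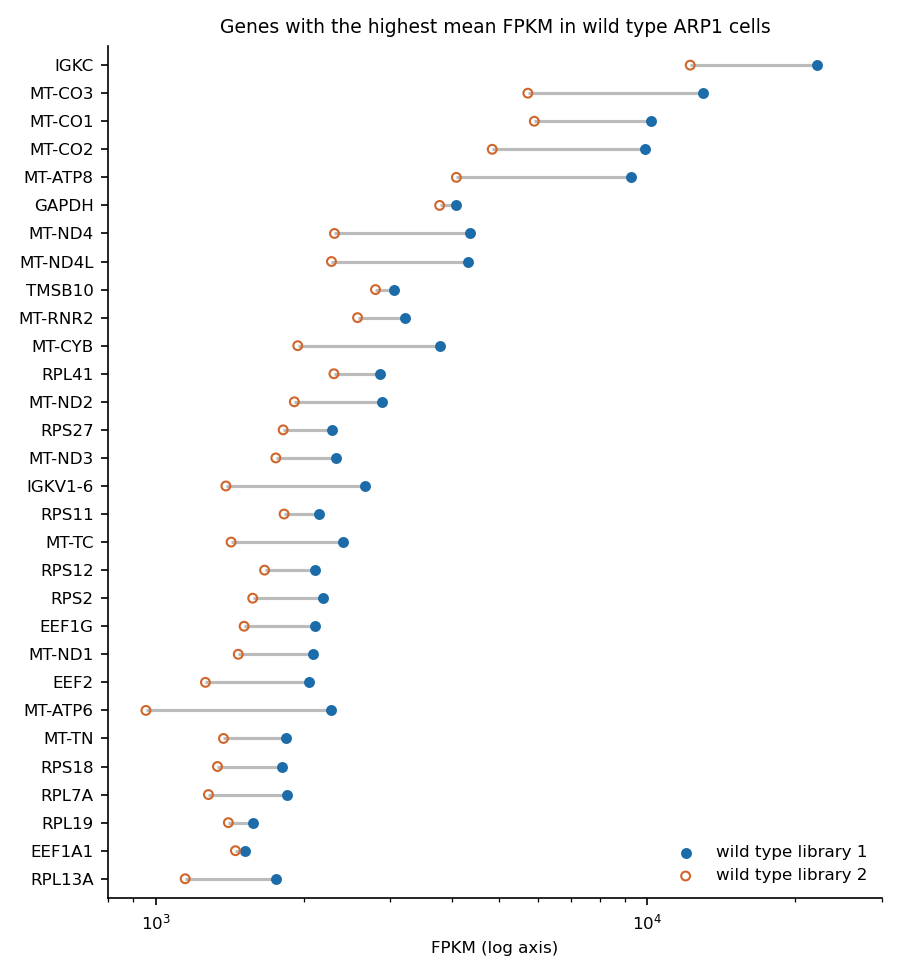
FPKM on a log axis of the 30 genes with the highest mean, with 1 point per wild type library (filled, library 1; open, library 2). IGKC lies above all others at 22146 and 12219 FPKM, and the mitochondrially encoded genes are spread wider between the libraries than GAPDH.

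As shares of summed FPKM, mitochondrially encoded genes took 23.0% and 14.9%, cytosolic ribosomal protein genes 13.5% and 12.4%, and immunoglobulin genes 7.42% and 5.03%. The 100 genes with the highest mean took 50.8% and 40.1%. FPKM divides by gene length and so weights short genes. As shares of counts, the mitochondrial genes took the 7.68% and 4.27% given above and the immunoglobulin genes 1.70% and 1.02%. Ribosomal protein genes took 15.1% and 11.4% of counts. Mitochondrial genes thus stood above ribosomal protein genes by FPKM and below them by counts, while both stood above the immunoglobulin genes on either scale.

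The immunoglobulin genes showed 1 dominant light chain, with the heavy chain constant regions far below IGKC in FPKM. A single kappa variable segment, IGKV1-6, held 99.7% and 99.3% of all counts on the 76 kappa variable segments of the table and stood at 2668 and 1389 FPKM. It was the only 1 of the 76 that reached 1 FPKM in both libraries. Of 73 lambda variable segments and 126 heavy chain variable segments, 0 did. The heavy chain variable segments had 23 and 8 counts in all, each on IGHV6-1. No source used here says how reads over rearranged segments were aligned.

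Among the constant regions, IGHG1, the heavy chain of the immunoglobulin G1 subclass, stood highest of the heavy chains at 83.0 and 78.1 FPKM. IGHG4 followed at 9.25 and 9.86 FPKM and IGHG3 at 7.34 and 6.33 FPKM. The IGHG genes are close copies of one another, so their division of reads is uncertain. IGHM and IGHD, the heavy chains of naive B cells, were listed at 0 in both libraries. JCHAIN, which joins antibody units into polymers, was among the most abundant nuclear genes at 878 and 1139 FPKM. MZB1, a chaperone of antibody assembly in the endoplasmic reticulum, stood at 195 and 113 FPKM. IGLL5, on the lambda locus, was listed at 924 and 945 FPKM. Its model overlaps IGLJ1 and IGLC1, and IGLC1 itself had 1 count in each library, so these reads cannot be assigned to 1 of these genes. The neighbouring lambda constant gene IGLC2 was far lower, at 3.39 and 2.36 FPKM. Of the 18 immunoglobulin chains and partners listed, 10 were expressed, against 17.2% of all genes in the table.

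The plasma cell transcription factors were present. Of the 14 genes on this list, 12 were expressed in both libraries, against 43.6% of all protein-coding genes. XBP1, the factor of the unfolded protein response that drives secretory expansion, was highest at 437 and 377 FPKM. PRDM1 (BLIMP1), the repressor that ends the B cell program, stood at 52.7 and 61.7 FPKM. IRF4, on which myeloma cells depend, was high in both libraries but the values lay apart, at 117 and 348 FPKM. The overexpression libraries stood at 124 and 256 FPKM for IRF4, so the libraries numbered 1 were the lower ones in both groups. The non-canonical NF-kB factors NFKB2, at 41.3 and 27.0 FPKM, and RELB, at 28.4 and 17.9 FPKM, were expressed at moderate levels, as was the E protein TCF3 at 33.3 and 36.3 FPKM. IKZF3 (Aiolos), a cereblon target of immunomodulatory drugs, stood at 11.3 and 16.2 FPKM, and its relative IKZF1 (Ikaros) at 7.28 and 10.9 FPKM. The coactivator POU2AF1, which binds octamer factors on immunoglobulin promoters, stood at 13.0 and 11.5 FPKM. The 2 listed genes below the threshold were ZBP1, at 0.346 and 0.192 FPKM, and ZBTB20, at 0.00800 and 0.00370 FPKM from 23 and 12 counts. ZBP1 was counted with the list but is not itself a transcription factor.

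**Figure D2:**
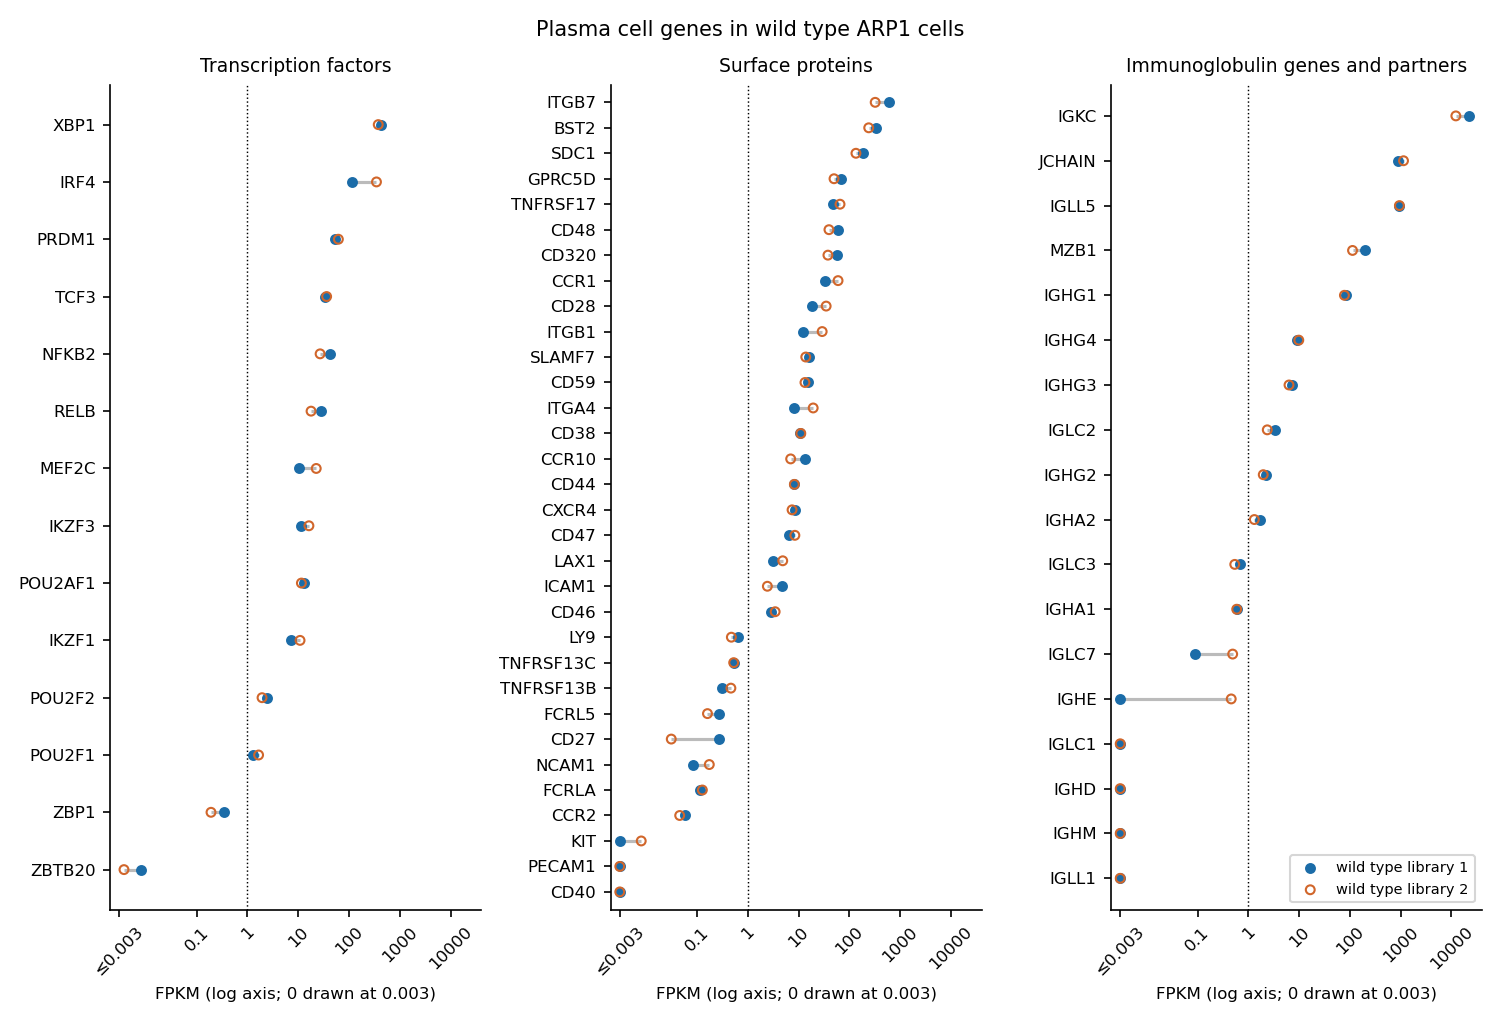
FPKM on a log axis of plasma cell transcription factors, surface proteins and immunoglobulin genes, with 1 point per wild type library (filled, library 1; open, library 2), values of 0 drawn at 0.003 and the expression threshold of 1 FPKM as a dotted line. XBP1, ITGB7 and IGKC head their panels, and CD40, IGHM and IGHD lie at the left edge.

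The listed genes of the secretory machinery that XBP1 serves were expressed in full. All 50 of 50 genes of endoplasmic reticulum import, folding, quality control, export and stress signalling reached 1 FPKM in both libraries. Over all protein-coding genes the share was 43.6%, and the list was chosen with earlier results of these data known. The median of the list was 34.6 FPKM, against 6.04 FPKM over all expressed genes. The cyclophilin PPIB had the highest mean of the list, at 561 and 408 FPKM. The lectin chaperone CALR stood at 443 and 484 FPKM and the disulfide isomerase PDIA6 at 449 and 411 FPKM. HSPA5 (BiP), the main Hsp70 chaperone of the compartment, stood at 81.9 and 129 FPKM. Its partner HSP90B1 (GRP94) stood at 50.2 and 93.2 FPKM. Both chaperones were thus below PPIB, CALR and PDIA6 in each library. SEC61A1, the pore of the import channel, stood at 153 and 165 FPKM. Among the stress sensors, ERN1 (IRE1), which splices XBP1 RNA, stood at 11.1 and 11.3 FPKM, and EIF2AK3 (PERK) at 3.96 and 7.40 FPKM. ATF4, translated when PERK or a related kinase is active, stood at 263 and 238 FPKM, and its target DDIT3 (CHOP) at 18.2 and 10.3 FPKM. The sensors were expressed at lower levels than the chaperones and isomerases named above.

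TXNDC5, a disulfide isomerase abundant in plasma cells, was listed at 847 FPKM in library 1 and at 38.0 FPKM in library 2. The readthrough model BLOC1S5-TXNDC5, which overlaps it on the same strand, was listed at 0.00718 and 1071 FPKM. Counts over the overlapping models summed to 313892 and 290600, so the locus was expressed nearly equally and its reads were listed under different models. In the overexpression libraries TXNDC5 was listed at 879 and 778 FPKM and the readthrough model at 0 in both.

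The promoters of 4 of these genes are shown because they carry the stress element through which ATF6 and XBP1 are known to act. The sequences are RefSeq's, on GRCh38.p14, from 250 bases before to 50 bases after each gene's start, written 5′ to 3′ on the gene's strand. The element searched, called ERSE, was CCAAT followed after 9 bases of any kind by CCACG, on either strand, and capitals mark each match. HSPA5 lies at chr9:125241294-125241593 on the minus strand, HSP90B1 at chr12:103930160-103930459 on the plus strand, CALR at chr19:12938359-12938658 on the plus strand and XBP1 at chr22:28800520-28800819 on the minus strand.
HSPA5: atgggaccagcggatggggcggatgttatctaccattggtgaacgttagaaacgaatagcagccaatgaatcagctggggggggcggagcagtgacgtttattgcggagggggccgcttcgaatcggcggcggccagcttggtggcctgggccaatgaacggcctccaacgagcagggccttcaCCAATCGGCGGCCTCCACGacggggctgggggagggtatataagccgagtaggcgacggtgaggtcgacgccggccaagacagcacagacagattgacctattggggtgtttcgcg
HSP90B1: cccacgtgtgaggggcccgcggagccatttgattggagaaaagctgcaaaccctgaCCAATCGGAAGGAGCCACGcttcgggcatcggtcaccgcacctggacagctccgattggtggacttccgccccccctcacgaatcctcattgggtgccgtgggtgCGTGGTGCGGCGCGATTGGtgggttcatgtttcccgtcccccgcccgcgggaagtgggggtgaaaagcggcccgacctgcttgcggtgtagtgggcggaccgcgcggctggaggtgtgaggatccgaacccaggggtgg
CALR: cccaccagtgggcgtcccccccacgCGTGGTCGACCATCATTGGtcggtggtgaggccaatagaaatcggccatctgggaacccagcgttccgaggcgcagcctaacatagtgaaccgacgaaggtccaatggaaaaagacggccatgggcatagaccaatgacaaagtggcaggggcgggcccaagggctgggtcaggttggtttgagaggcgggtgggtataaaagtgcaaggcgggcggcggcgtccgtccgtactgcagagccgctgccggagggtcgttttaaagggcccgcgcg
XBP1: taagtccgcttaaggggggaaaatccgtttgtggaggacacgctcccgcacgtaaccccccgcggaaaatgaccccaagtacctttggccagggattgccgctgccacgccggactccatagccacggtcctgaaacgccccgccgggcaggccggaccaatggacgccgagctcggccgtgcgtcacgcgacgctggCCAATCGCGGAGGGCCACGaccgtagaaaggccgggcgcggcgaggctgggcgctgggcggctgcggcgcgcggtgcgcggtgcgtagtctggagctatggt

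Counting the gene's start as 0, the match began at -66 in HSPA5, at -194 and -89 in HSP90B1, at -225 in CALR and at -52 in XBP1. ERSE was found in 27 of 35116 promoters of this length, which is 0.0769%. Of the secretory list, 44 of 50 genes had a promoter in the table, and 6 of those 44 held a match: HSPA5, HSP90B1, CALR, PDIA6, CANX and CRELD2. A second element, ERSE-II, was searched as ATTGG, 1 base of any kind and CCACG on either strand and occurred in 19 promoters (0.0541%), among them those of HERPUD1, HYOU1 and SDF2L1 of the list. Counted by gene, 9 of the 44 secretory genes held an element, against 44 of 27305 genes in all. Counted by promoter, it was 11 of 62 (17.7%) against 0.131%, where 3 of the 11 are overlapping windows of CANX with the same site. Of the other lists searched, the proliferation list had an element in 0 of 25 promoters, the glycolysis list in 0 of 47 and the plasma cell transcription factors in 1 of 31, that of XBP1. Both elements are known from genes of this kind, so their share in the secretory list was not open to test here. A match describes the letters of the window only.

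On the surface, 21 of 32 listed plasma cell and myeloma genes were expressed, against 43.6% of all protein-coding genes. SDC1 (CD138), the proteoglycan used to identify plasma cells, stood at 186 and 134 FPKM. ITGB7, an integrin subunit that MAF activates in myeloma, was the highest of the list at 612 and 321 FPKM. BST2 (tetherin) followed at 340 and 240 FPKM. The targets of current immunotherapies were present at different levels: GPRC5D at 68.97 and 49.7 FPKM and TNFRSF17 (BCMA), the receptor for BAFF and APRIL, at 46.6 and 65.3 FPKM. SLAMF7, bound by elotuzumab, stood lower at 15.9 and 13.8 FPKM. CD38, bound by daratumumab, stood at 10.7 and 11.0 FPKM. In FPKM, GPRC5D and TNFRSF17 thus lay above SLAMF7 and CD38 in each library, and the order of GPRC5D and TNFRSF17 turned between libraries.

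FCRL5, another target of antibodies in myeloma, lay under the threshold at 0.274 and 0.160 FPKM. CD27 and NCAM1 (CD56), markers used to sort normal from malignant plasma cells, stood at 0.265 and 0.031 FPKM and at 0.0816 and 0.174 FPKM. The costimulatory receptor CD28, often gained in advanced myeloma, was expressed at 18.04 and 34.8 FPKM. The chemokine receptors divided: CCR1 stood at 33.4 and 59.7 FPKM and CXCR4, which holds plasma cells in the marrow, at 8.31 and 7.41 FPKM, whereas CCR2 stood at 0.0578 and 0.0454 FPKM. CD40, the receptor for T cell help, was listed at 0 in both. TNFRSF13B (TACI), at 0.308 and 0.463 FPKM, and TNFRSF13C (BAFF receptor), at 0.530 and 0.525 FPKM, were under the threshold, so that of the 3 receptors of this ligand family only TNFRSF17 was expressed.

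Of 31 B cell genes, 7 were expressed, against 43.6% of all protein-coding genes, and 9 were listed at 0 in both libraries, with a median of 0.210 FPKM over the list. The 7 became 12 after rescaling both libraries to a higher equal sum, 1 at a threshold of 5 FPKM and 4 without overlapping models. CD22, EBF1, the factor that specifies B cells, and CXCR5, the follicle homing receptor, were listed at 0. MS4A1 (CD20) had a value of 0.0047 FPKM in library 1 and 0 in library 2. PAX5, the keeper of B cell identity that PRDM1 represses, was near the threshold at 0.792 and 1.06 FPKM. The genes that remained above the threshold included 5 of antigen presentation by class II molecules. Of these, HLA-DRA stood at 123 and 84.2 FPKM, HLA-DRB1 at 5.92 and 4.66 FPKM and HLA-DPB1 at 3.26 and 2.02 FPKM. CD74, the invariant chain, stood at 10.5 and 3.03 FPKM, and CIITA, their transactivator, at 2.43 and 2.30 FPKM. HLA-DRA was thus far above the other class II genes in both libraries. CD79A, a signalling chain of the B cell receptor, and the repressor BACH2 were the remaining ones, at 2.73 and 1.37 FPKM and at 2.29 and 3.35 FPKM.

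Of 12 genes activated by recurrent myeloma translocations, 8 were expressed, against 43.6% of all protein-coding genes. MAF was expressed at 58.5 and 54.4 FPKM, with close values in both libraries, while its relative MAFA was listed at 0. CCND2, a D cyclin that MAF is known to activate, stood at 38.3 and 58.2 FPKM, above CCND3 at 14.6 and 4.47 FPKM and CCND1 at 1.02 and 1.55 FPKM. ITGB7 and CCR1, given above, are also known as MAF targets in myeloma. These 3 genes came from lists made for other ends, and no list of MAF targets was drawn up. Whether MAF acts on them in these cells was not tested. NSD2, a histone methyltransferase, stood at 9.54 and 11.2 FPKM, and FGFR3, its usual partner in the same translocation, at 0.324 and 0.181 FPKM. The data on RNA levels do not show whether any of these genes is rearranged.

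MYC, the proto-oncogene for a factor of cell growth, was the gene of this list whose libraries lay farthest apart. It stood at 3.45 FPKM from 1343 counts in library 1 and at 90.4 FPKM from 35263 counts in library 2. No other gene model overlaps it on its strand. The overexpression libraries stood at 3.44 and 4.48 FPKM, so wild type library 2 alone of the 4 libraries was high. A single wild type level of MYC can therefore not be given. The relative MYCN was expressed at 3.56 and 2.50 FPKM, and MYCL was under the threshold at 0.224 and 0.445 FPKM. MAX, the partner of these factors, stood at 7.63 and 8.77 FPKM.

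Among 37 other oncogenes and tumour suppressors, 32 were expressed, against 43.6% of all protein-coding genes. PIM2, a survival kinase of plasma cells, was highest at 392 and 415 FPKM, above its relatives PIM3, at 60.1 and 35.0 FPKM, and PIM1, at 36.1 and 22.9 FPKM. MCL1, the survival protein on which plasma cells rely, stood at 115 and 133 FPKM, far above BCL2L1 (BCL-XL) at 7.94 and 6.96 FPKM and BCL2 at 6.48 and 5.43 FPKM. The order MCL1, BCL2L1, BCL2 was the same in each library. BCL2L11 (BIM), the antagonist of these proteins, stood at 3.80 and 14.98 FPKM. NRAS, commonly mutated in myeloma, stood at 15.8 and 38.1 FPKM, and BRAF was under the threshold at 0.674 and 0.830 FPKM.

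The cell cycle brakes were divided. CDKN2A, which encodes p16 and ARF, was expressed at 54.5 and 42.7 FPKM and its neighbour CDKN2B at 14.6 and 24.2 FPKM. CDKN1B (p27) stood at 60.4 and 70.2 FPKM. CDKN2C (p18), an inhibitor of the D cyclin kinases that is deleted in part of myelomas, had a count of 0 in both libraries. CDKN1A (p21) stood at 4.01 and 1.38 FPKM and RB1 at 2.60 and 4.18 FPKM. Thus 1 of these 6 inhibitors of the cell cycle was without a count. CKS1B, which helps degrade p27 and lies in a region often gained in myeloma, stood at 99.7 and 105 FPKM, and the kinase CDK4 at 81.7 and 86.4 FPKM. TENT5C (FAM46C), a poly(A) polymerase and myeloma suppressor, stood at 19.7 and 26.9 FPKM, and DIS3, a nuclease of the exosome, at 1.64 and 3.94 FPKM.

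**Figure D3:**
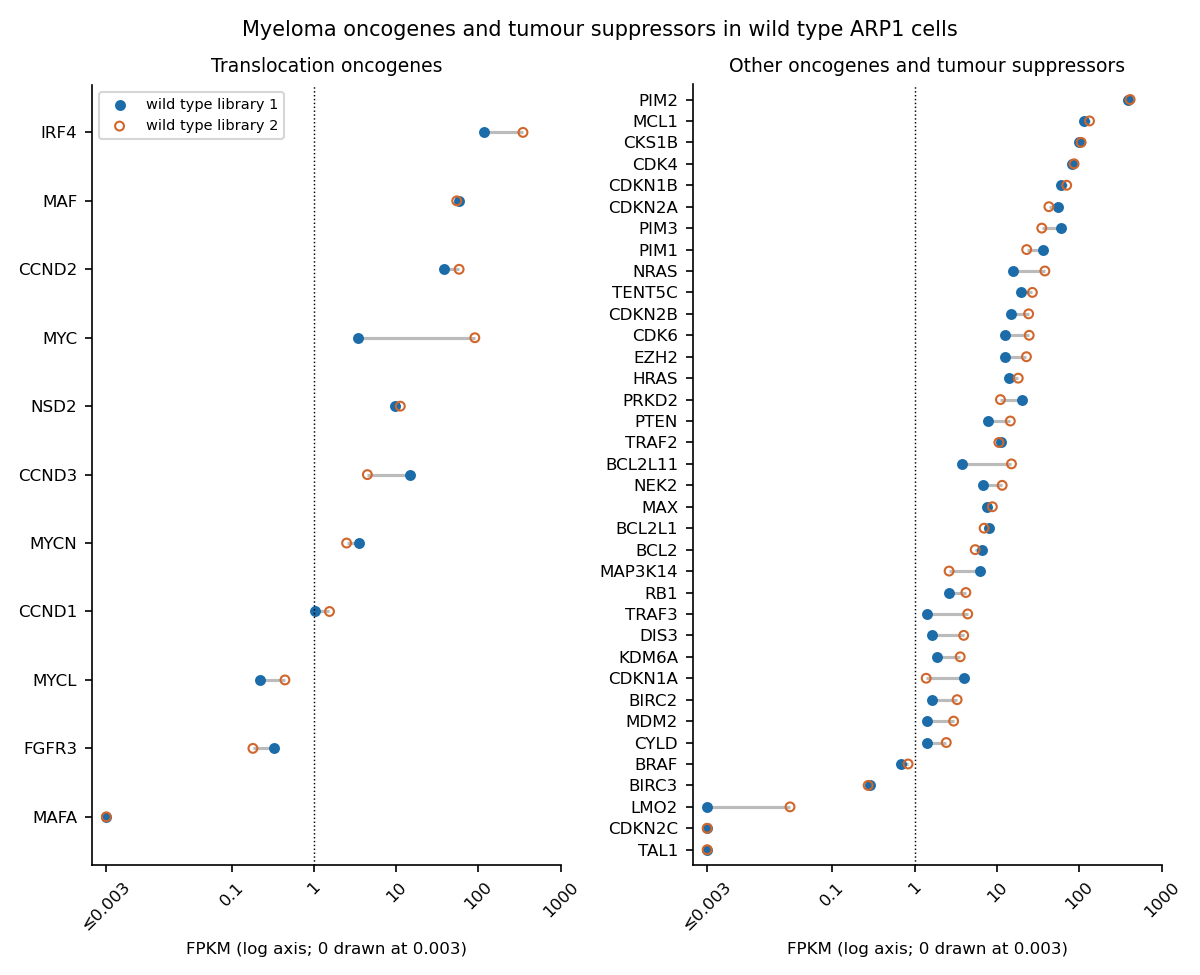
FPKM on a log axis of reported myeloma translocation oncogenes (left) and other oncogenes and tumour suppressors (right), with 1 point per wild type library (filled, library 1; open, library 2), values of 0 drawn at 0.003 and the expression threshold of 1 FPKM as a dotted line. MAF, PIM2 and MCL1 lie close in both libraries, MYC stands at 3.45 and 90.4 FPKM, and CDKN2C and MAFA lie at the left edge.

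The proliferation list was expressed almost in full, with 25 of 26 genes, against 43.6% of all protein-coding genes. Its median was 28.1 FPKM. MYBL2, a factor of the transition through S phase, was highest at 154 and 153 FPKM. MCM7, a subunit of the replicative helicase, stood at 109 and 97.7 FPKM. The ubiquitin-conjugating enzyme UBE2C, which serves exit from mitosis, stood at 68.9 and 84.7 FPKM, and CCNB1 (cyclin B1) at 52.7 and 89.4 FPKM. MKI67, the common histological marker, stood at 11.5 and 17.3 FPKM. The exception was CCNE2 at 0.176 and 0.669 FPKM, while CCNE1 stood at 11.4 and 10.9 FPKM.

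Of 31 cytokines, growth factors and their receptors, 9 were expressed, against 43.6% of all protein-coding genes. VEGFB stood at 54.9 and 37.3 FPKM and VEGFA, the main angiogenic factor, at 4.40 and 3.49 FPKM. CCL3 (MIP-1alpha), a chemokine that activates bone resorption in myeloma, was the highest of the chemokines on this list at 47.9 and 17.0 FPKM. On the receiving side, IL6R stood at 18.6 and 17.0 FPKM and its signalling partner IL6ST (gp130) at 2.80 and 4.30 FPKM, whereas the ligand IL6 stood at 0.124 and 0.0630 FPKM. IGF1R stood at 3.98 and 4.93 FPKM and its ligand IGF1 at 0.231 and 0.280 FPKM. The receptors for both growth factors were thus expressed and their ligands were under the threshold. TNFSF13B (BAFF) was listed at 0 and 0.0144 FPKM and TNFSF13 (APRIL) at 0.446 and 0.518 FPKM, both ligands of the expressed receptor TNFRSF17. DKK1, a Wnt antagonist secreted by many myelomas, stood at 0.224 and 0.614 FPKM. CXCL12, CXCL8, IL1B and TNFSF11 (RANKL) were listed at 0 in both. NR3C1, the glucocorticoid receptor through which dexamethasone acts, was expressed at 5.59 and 10.2 FPKM.

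The ligase that the study overexpressed was expressed in unmodified cells. Of 15 genes of the COP1 and cereblon ligases and of other cullin ligases (CUL3, KEAP1, SKP2 and FBXW7), 14 were expressed. Over all protein-coding genes the share was 43.6%. TRIB1, a Tribbles pseudokinase that brings substrates to COP1, was highest at 54.6 and 59.9 FPKM, above TRIB2 at 16.9 and 35.3 FPKM and TRIB3 at 8.40 and 8.03 FPKM. The shared adaptor DDB1 stood at 37.3 and 40.7 FPKM and the scaffold CUL4A at 7.06 and 14.7 FPKM. DET1, which links COP1 to that scaffold, straddled the threshold at 0.136 and 1.01 FPKM. CRBN (cereblon), the receptor of lenalidomide, was barely above it at 1.05 and 1.63 FPKM. COP1 and CRBN were thus below the shared adaptor DDB1 in each library.

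Isoenzymes of glycolysis were expressed selectively, 19 of 29 genes, against 43.6% of all protein-coding genes. ALDOA stood at 315 and 182 FPKM and ALDOC at 64.5 and 44.1 FPKM. Of the phosphofructokinases, PFKM stood at 30.3 and 32.7 FPKM and PFKL at 16.8 and 10.5 FPKM, while PFKP was listed at 0 and 0.0233 FPKM. The pyruvate kinase PKM stood at 474 and 276 FPKM, and the red cell and liver form PKLR at 0.0281 FPKM and 0. LDHA stood at 267 and 375 FPKM and LDHB at 311 and 339 FPKM, and the testis form LDHC at 0 and 0.0419 FPKM. The hexokinases HK1, at 2.79 and 3.39 FPKM, and HK2, at 5.06 and 8.62 FPKM, were expressed. Several of these models overlap others, and enzymes of this pathway have pseudogenes that can take reads.

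Class I antigen presentation was expressed, with 12 of 13 listed genes, against 43.6% of all protein-coding genes. HLA-B stood at 366 and 183 FPKM and B2M, the light chain that class I molecules share, at 286 and 197 FPKM. HLA-C was listed at 98.9 and 18.5 FPKM, and its model overlaps that of HLA-B in the deposited table. The exception was HLA-G at 0.208 FPKM and 0. Of the 12 genes, 10 were lower in library 2, 5 of them by at least 2-fold. Over the 11079 genes compared, 6938 were higher in library 2 and 2.27% were lower by at least 2-fold. After rescaling library 2 to the summed FPKM of library 1, 10 of the 12 were still lower, 1 by at least 2-fold. On that scale 149 of the 11079 genes were lower by at least 2-fold. Summed over the 13 listed genes, levels were 1464 and 768 FPKM. In overexpression libraries 1 and 2 the sums were 1597 and 891 FPKM, so library 1 was the higher in both groups.

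Of 18 cancer-testis antigens, genes normally confined to germ cells, 5 were expressed, against 43.6% of all protein-coding genes. The other 13 were listed at 0 in both libraries. PAGE5 was among the most abundant genes of the cells at 363 and 362 FPKM. PRAME stood at 9.48 and 12.1 FPKM, MAGEA1 at 7.47 and 11.9 FPKM, MAGEA6 at 1.24 and 1.66 FPKM and MAGEA3 at 10.2 and 43.4 FPKM. MAGEC1, CTAG1B (NY-ESO-1) and the SSX and GAGE genes listed were at 0. MAGEA3 and MAGEA6, like the GAGE, SSX and CTAG genes, are close copies, and no source used here says to which copy a shared read was given.

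The markers of other lineages were nearly silent. Over 14 lists with 188 markers, 9 markers reached 1 FPKM in both libraries, against 43.6% of all protein-coding genes. Of the markers, 173 were under 1 FPKM in both and 89 were listed at 0 in both, with a median of 0.00373 FPKM. For T cells 1 of 20 markers was expressed, the factor GATA3 at 1.56 and 1.88 FPKM, while CD3D and CD3G were listed at 0 and the summed level was 2.16 and 3.49 FPKM. For NK cells the count was 0 of 13, for myeloid cells 0 of 23 with LYZ, S100A8 and S100A9 listed at 0, for megakaryocytes 0 of 10 and for progenitors 0 of 8 with CD34 and FLT3 listed at 0. For epithelial cells 1 of 14 was expressed, KRT18 at 1.97 and 1.84 FPKM, while CDH1 was listed at 0. Fibroblast, endothelial, hepatocyte, muscle and pluripotency lists had 0 expressed markers, with COL1A2, CDH5, ALB, MYOD1 and NANOG listed at 0. Of the neuronal list only SYP, a vesicle protein, was expressed, at 1.34 and 1.20 FPKM.

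The erythroid list had the highest summed level of the 14, at 24.3 and 17.8 FPKM, and 4 of 21 expressed markers. These were HBE1 at 10.5 and 9.70 FPKM, HBD at 4.86 and 3.71 FPKM, HBG2 at 1.48 and 1.21 FPKM and EPOR, the erythropoietin receptor, at 6.16 and 1.88 FPKM. GATA1, SLC4A1 and AHSP, which define red cell precursors, were listed at 0. The deposited model of HBE1 spans chr11:5268345-5505652 and overlaps HBG2 and several olfactory receptor genes, and HBE1 had 857 and 796 counts over that stretch. Of the adipocyte list, checked because of the wording of the protocol, 2 of 12 were expressed: PPARG, a nuclear receptor also found outside fat, at 6.17 and 5.47 FPKM and LIPE at 2.83 and 2.11 FPKM. ADIPOQ, LEP, FABP4 and PLIN1, which define fat cells, were listed at 0 in both. Thus 12 of 14 genes of the plasma cell factor list and 21 of 32 surface genes were expressed. Of the adipocyte markers, 10 of 12 were under the threshold in both libraries. Another 6 markers passed the threshold in 1 library only, and each stayed under 2 FPKM.

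**Figure D4:**
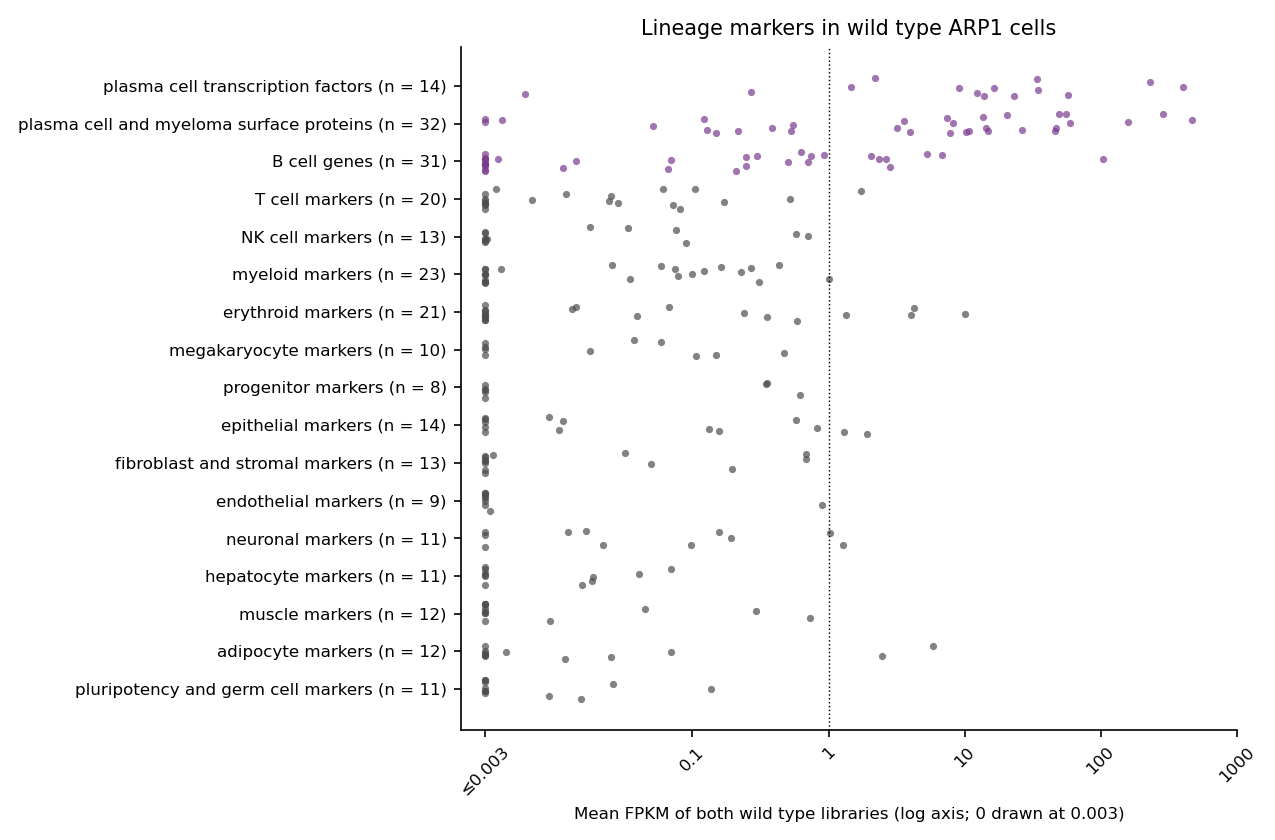
Mean FPKM of both wild type libraries on a log axis for each gene of 17 marker lists, with 1 point per gene, values of 0 drawn at 0.003 and the expression threshold of 1 FPKM as a dotted line. Purple points (upper rows) are the plasma cell lists and the B cell list. Right of the threshold by their mean lie 12 of 14 genes of the transcription factor list, 21 of 32 surface genes and 7 of 31 B cell genes. Of the markers of other lineages (grey), 12 of 188 lie there.

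How far a level holds from 1 wild type library to the other was described over the 11079 genes whose mean reached 1 FPKM, as the difference in log2(FPKM + 1). The libraries ran together across genes, with a Pearson r of 0.94 and a Spearman rho of 0.91, where genes are not independent replicates. At least 2-fold higher in library 2 were 504 genes (4.55%) and at least 2-fold lower 251 (2.27%), 755 in all (6.81%). The median gene was 0.19 higher in library 2. That balance depended on the scaling: centring on the median gene gave 208 higher and 458 lower, rescaling to equal summed FPKM gave 1302 and 149 with a median of 0.40, and counts scaled to library size gave 1085 and 328. No general direction can therefore be given, and the genes below are those far beyond these shifts.

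Among the genes that lay farthest apart, some shared a locus with overlapping models whose summed counts lay closer, as for TXNDC5 above. INO80B-WBP1 stood at 20.4 FPKM and 0, while counts over it and the genes it overlaps summed to 7905 and 4881. RPL36A-HNRNPH2 stood at 0 and 20.9 FPKM with locus counts of 55971 and 46511. At other loci with overlapping models the summed counts stayed far apart, with 1705 and 12103 counts for CYB5B, 1437 and 7927 for CBX1 and 2282 and 472 for HNRNPA1L2. Of the 755 genes at least 2-fold apart, 289 overlapped another model on their strand, against 3619 of all 11079.

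Other genes had a model that overlaps no other. DDIT4, a stress-induced inhibitor of mTORC1, stood at 400 and 60.5 FPKM, and the overexpression libraries at 206 and 22.4 FPKM. ZFP36 (tristetraprolin), which destabilises cytokine RNAs, stood at 37.4 and 6.95 FPKM and in the overexpression libraries at 53.5 and 9.48 FPKM. NXPH4, a neurexophilin, stood at 19.0 and 2.66 FPKM and in those libraries at 17.8 and 3.14 FPKM. For these genes the libraries numbered 1 were higher in both groups. In the other direction, SAR1A, a GTPase of vesicles that leave the endoplasmic reticulum, stood at 3.19 and 14.5 FPKM, with 3.65 and 12.4 FPKM in the overexpression libraries. SRP9, a subunit of the signal recognition particle, stood at 11.6 and 77.4 FPKM, with 33.6 and 89.5 FPKM there. Not all genes followed this shared pattern: MYC was high only in wild type library 2, and MAGEA3, at 10.2 and 43.4 FPKM in wild type, stood at 25.7 and 15.5 FPKM in the overexpression libraries. MTCO1P12, a nuclear copy of MT-CO1, stood at 648 and 111 FPKM and can share reads with the mitochondrial gene, which was lower in library 2 too. The part of mitochondrial content in these differences was not tested.

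**Figure D5:**
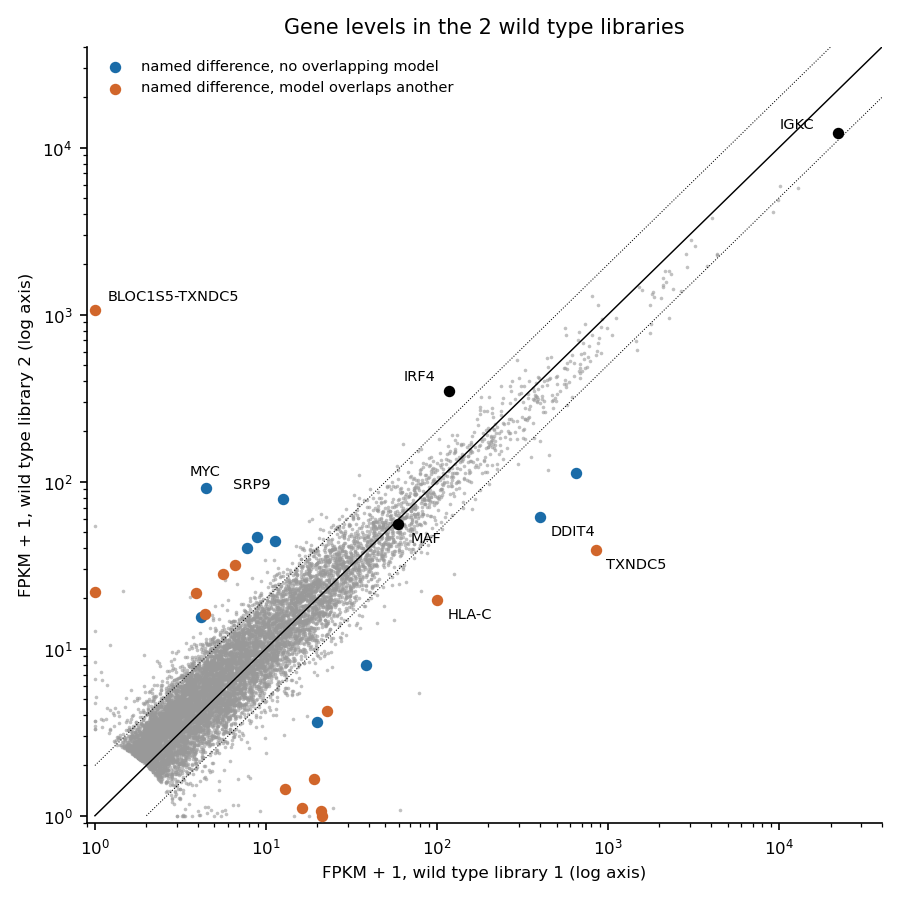
FPKM + 1 in wild type library 2 against library 1 on log axes for genes whose mean reached 1 FPKM (grey), with lines of equality and of 2-fold difference and the named differences coloured by whether their model overlaps another. MYC and SRP9 lie above the band, DDIT4 below it, and TXNDC5 and BLOC1S5-TXNDC5 on opposite sides, while MAF lies near the line of equality.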

How the data were processed

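The wild type group comprises 2 libraries, named by the genotype and title labels. The deposited table gives FPKM and whole-number columns headed as counts for each library, per the file headers. These deposited values were taken as estimated counts, since no source used here names the counting tool. Per the submitters' processing notes, Bowtie 0.12.2, HISAT2 2.0 and StringTie 1.3.0 were among the tools, with no roles given. Those notes list a mouse build, mm8, while the table holds human genes, of which 99.5% occur in GENCODE 29 and 94.7% with its chromosome, strand and 1 end. Coordinates follow the table. An FPKM of 0.0001, the deposited placeholder, was set to 0.

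Levels, shares and counts were computed with pandas 2.3.3 and NumPy 2.4.6. Counting steps were tested on simulated data. No test was run, since 1 group of 2 libraries is described. Library differences used a pseudocount of 1, which understates differences of low genes. Gene overlap was read from the table's coordinates on the same strand. Of 516 symbols in 27 lists, 513 were found. The libraries, the lists and the promoter motifs were chosen with earlier results of these data known. Named genes were the 30 with the highest mean, list members, up to 5 variable segments per immunoglobulin locus, up to 12 genes per gene ontology class and up to 12 genes each way with the largest library difference at a mean of at least 5 FPKM. Ontology terms were used for 17382 genes. Some list members are counted but not reported here by name.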

Additional observations from a re-analysis of the deposited data

How the results depend on the processing

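Every value rests on 2 libraries, so an SD has 1 degree of freedom, and reads of overlapping or near-identical genes could not be assigned. No paired analysis was possible because the results come from no test.

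The 10138 expressed genes became 4942 at a threshold of 5 FPKM and ranged from 10668 to 11238 with either library alone. Of the genes in the lists other than lineage markers, 223 were expressed, 148 without genes whose model overlaps another, and 224 to 226 with either library alone. The 9 lineage markers became 17 at 0.5 FPKM, 2 at 5 FPKM, 23 after rescaling both libraries to the same, higher sum, 3 without overlapping models, and 12 with either library alone.

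The mean shares of summed FPKM were 18.9% mitochondrial, 13.0% ribosomal protein, 6.22% immunoglobulin, 1.32% secretory and 45.4% for the top 100 genes. As shares of counts the mitochondrial, immunoglobulin, secretory and top 100 values were 5.97%, 1.36%, 1.87% and 24.0%. Without mitochondrial genes in the sum the ribosomal, secretory and top 100 values were 16.1%, 1.64% and 33.4%. With either library alone the shares ranged from 14.9% to 23.0%, 12.4% to 13.5%, 5.03% to 7.42%, 1.297% to 1.35% and 40.1% to 50.8% in the order first given.

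The 504 genes at least 2-fold higher and 251 lower in library 2 became 1230 and 442 with a pseudocount of 0.1 and 291 and 145 at a mean of at least 5 FPKM. Higher genes numbered 1085 by counts scaled to library size. Chosen after seeing the data, leaving out overlapping models gave 329 and 137, centring on the median gene 208 and 458, and rescaling to equal summed FPKM 1302 and 149. The causes of these shifts were not tested beyond the construction of each alternative.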

Other observations

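Around CDKN2C, which had a count of 0 in both wild type libraries, several neighbouring protein-coding genes on chromosome 1 were at or near 0 as well. FAF1, an adaptor of protein degradation whose start lies beside that of CDKN2C, had 0 and 4 counts. DMRTA2 and C1orf185 had a count of 0 in both. The next gene on the far side, RNF11, stood at 1.40 and 2.42 FPKM, and EPS15 and OSBPL9 beyond it at 1.15 and 1.79 FPKM and at 4.59 and 10.7 FPKM. In the overexpression libraries CDKN2C and FAF1 were listed at 0 too, and RNF11 stood at 1.67 and 2.69 FPKM. On the near side ELAVL4, which is also on the neuronal marker list, and BEND5 had a count of 0 in both libraries. AGBL4 had 0 and 4 counts. Over the whole table, 33453 of 58825 genes had a count of 0 in both, and 43.6% of protein-coding genes were expressed. Why these neighbours were low was not tested. These genes were looked at after the value of CDKN2C was seen.

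Among genes with an ontology term used here, the highest listed kinase-related gene was CSNK2B, the regulatory subunit of casein kinase, at 80.4 and 75.8 FPKM. MAPKAPK2, a kinase downstream of p38, followed at 70.1 and 57.7 FPKM. The kinases PIM2 and CDK4, given above, stood higher in each library but were outside this ranking. NFIL3, a basic leucine zipper repressor, stood at 130 and 120 FPKM. On the cell surface, MICB, a ligand of the NK cell receptor NKG2D, stood at 46.7 and 38.3 FPKM. The shared cytokine receptor chains IL2RG and IL2RB stood at 24.4 and 13.0 FPKM and at 11.6 and 15.8 FPKM. HDGF, a growth factor bound to heparin, stood at 210 and 276 FPKM.

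Of the long intergenic noncoding genes with a symbol, SNHG19 stood at 102 and 77.9 FPKM and LINC01916 at 60.2 and 86.0 FPKM. FAM30A, at chr14:105917979-105932642, stood at 24.996 and 27.4 FPKM. The heavy chain constant gene IGHM is listed nearby, at chr14:105851705-105856218.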
